A study of Mus musculus with 265 samples.

Results

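The promoters of the mouse zinc finger protein genes whose symbols begin with Zfp followed by a digit were examined in single-cell ATAC-seq data from B3 cells, a mouse pre-B cell line. A region of the deposited matrix was taken as a promoter region when its midpoint lay within 1000 bp of the start site of a protein-coding gene, and 291 of the 8786 promoter regions lay at a Zfp start site. The matrix holds 20103 regions in all, on mm10. Both groups carry the same transgene, ERt2-Ikaros, in which a hormone-binding domain of the estrogen receptor holds Ikaros outside the nucleus until 4-hydroxytamoxifen is given. The 0-hour cells were collected before tamoxifen was added, and the 24-hour cells after 24 hours of it, with a further dose on the way. Cells were captured in 2 Fluidigm C1 runs per time-point, with 48 and 47 cells at 0 hours and 60 and 72 cells at 24 hours. All cells come from 1 inducible line, and the sources used here do not say whether the runs came from separate cultures, so a p-value here measures only the spread between runs, which may be technical.

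C2H2 zinc finger proteins form the largest family of transcription factors in mammals, and each finger is a short fold held by a zinc ion that reads a few bases of DNA. Many of them carry a KRAB domain, which recruits the corepressor Trim28 and through it the histone methyltransferase Setdb1, so that the chromatin at the bound site is silenced. KRAB zinc finger genes have multiplied by tandem duplication and lie in clusters on several chromosomes, and many of their proteins bind endogenous retroviruses. Other Zfp proteins have no KRAB domain and act as general transcription factors, and a few, such as the Zfp36 family, have zinc fingers of another type that bind messenger RNA. Ikaros, which tamoxifen brings into the nucleus of these cells, is itself a C2H2 zinc finger protein that binds the core GGGAA and recruits the NuRD complex.

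A short element recurred at the Zfp promoters and is shown first because it lets several members be set side by side. It consists of TGGGAA, any base, and TGTAG. Its first part is the extended Ikaros core, and read on the other strand the element resembles the recognition sequence of ZFP143, an activator that binds near start sites and is itself a member of the family. The element was defined after the Zfp sequences had been seen, so its share among them is in part fixed by that choice. It was found in the 150-bp windows of 19 of the 291 regions, 16 of them at genes that encode a KRAB domain and 16 in a gene cluster. In all 19 the next base was T, the free base was A in 12, T in 5 and G in 2, and its centre lay within 50 bp of the start site in 14. The 10 examples with signal in the most cells follow, each as 30 bases of mm10 in the direction of the element with the element in capitals.

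Zfp87 (chr13:67526203-67526232, minus strand): acagaactcTGGGAAATGTAGtcgtgccct
Zfp566 (chr7:30090565-30090594, plus strand): ggagccctcTGGGAAATGTAGtcagtccga
Zfp263 (chr16:3743663-3743692, minus strand): tggggctggTGGGAAATGTAGtccatggcg
Zfp128 (chr7:12881152-12881181, plus strand): gtggccttcTGGGAATTGTAGtctcagtgt
Zfp60 (chr7:27731336-27731365, minus strand): ggtagccccTGGGAAATGTAGtgccgagtg
Zfp58 (chr13:67500534-67500563, minus strand): acagacttgTGGGAATTGTAGtctggccac
Zfp790 (chr7:29815958-29815987, plus strand): gaggtattcTGGGAAATGTAGttcaaggcc
Zfp729a (chr13:67637796-67637825, minus strand): actgacttgTGGGAAGTGTAGtcctggttc
Zfp748 (chr13:67553159-67553188, minus strand): acagacttgTGGGAAGTGTAGtcttccgtt
Zfp273 (chr13:67813739-67813768, plus strand): atagacttcTGGGAAATGTAGtttctctct

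The windows of the chromosome 13 cluster share letters before the element. Members that arose by duplication share sequence, so these regions are not independent occurrences. Zfp273 is the only example of the 10 whose region has more than 1 copy in the genome.

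Regions from the family do not all look alike, and 2 whole regions that overlap no annotated exon are shown for contrast, since neither holds the element. The region at Zfp654 had signal in more cells than all but 1 other member, and the region at Zfp667 was among the members with a higher level in both 24-hour runs. Each is printed on the strand of its gene, with the deposited start and end read as the first and last base. Searched on both strands were the Ikaros core GGGAA, the ETS core CCGGAAG, the NRF1 core GCGCATG, the CRE core TGACGTCA, the CCAAT box, the SP core GGGCGG and the YY1 core AAGATGGC. Capitals mark every match.

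Zfp654 (chr16:64851793-64851943, minus strand): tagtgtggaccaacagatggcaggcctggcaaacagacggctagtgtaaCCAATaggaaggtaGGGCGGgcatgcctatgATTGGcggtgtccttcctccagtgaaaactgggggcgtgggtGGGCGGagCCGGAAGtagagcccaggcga
Zfp667 (chr7:6286348-6286497, plus strand): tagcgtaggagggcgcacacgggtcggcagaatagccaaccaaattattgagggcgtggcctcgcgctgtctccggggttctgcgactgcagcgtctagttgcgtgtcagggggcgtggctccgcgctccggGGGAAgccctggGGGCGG

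The Zfp654 region, which also lies within 1000 bp of the start site of Cggbp1, held 2 CCAAT boxes, 2 SP cores and 1 ETS core. The Zfp667 region held 1 Ikaros core and 1 SP core. A match of letters is a description and does not show that a factor was bound.

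Total counts were 164357 and 92639 at 0 hours and 122586 and 142611 at 24 hours, with no single value above 2. Promoter regions took 51.0 and 48.5% of the 0-hour counts and 58.3 and 66.4% of the 24-hour counts, so that Zfp promoters were compared with other promoters rather than with all regions. Of 11 B lineage genes fixed as markers, 8 had a promoter region, among them Cd79a, Pax5 and Ebf1. The shares of cells summed over these 8 regions were 117 and 72.3% at 0 hours and 63.4 and 50.0% at 24 hours. None of the 5 T lineage genes and none of the 4 erythroid genes had one, and of the 5 myeloid genes Lyz2 had a region with signal in 6 of 227 cells.

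The first question was how much of the family had an accessible promoter in these cells. Of the 394 annotated protein-coding Zfp genes, 237 (60.2%) had at least 1 promoter region, against 8201 of the 21557 other protein-coding genes (38.0%). These shares count genes of 1 cell line and have no replicates, so no test was made of their difference. The deposited regions were called on bulk samples of both time-points, and each had signal in at least 5 of the cells, so a gene without a region is one below this limit and not one without expression. A single region was nearest to the start in 192 genes, 33 genes had 2 and 11 had 3. The midpoints lay close to the start site, with a median of -12.5 bp and quartiles of -61.8 and 77.8 bp, and 125 of them lay between genes, 99 in a UTR, 49 in an intron, 15 in a noncoding exon and 3 in a coding exon. Another coding start site lay within reach of 36 of the 291 regions, and their signal cannot be assigned to one gene alone.

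Within the Zfp genes, coverage did not follow the KRAB domain closely but differed widely between gene clusters. A protein was taken as KRAB when its translated coding sequence held a KRAB box motif. A box that differs from the motif searched is missed, so the genes without a KRAB motif may include some KRAB genes. Without KRAB means without this motif throughout. Of 217 genes with a KRAB motif and C2H2 fingers 128 (59.0%) had a region, and of 161 with C2H2 fingers and no KRAB motif 104 (64.6%) did. Of the 13 genes with neither motif, 5 had a region, namely the RNA-binding Zfp36, Zfp36l1 and Zfp36l2 together with Zfp330 and Zfp703. The 3 genes with a KRAB motif alone had none. Among zinc finger genes with other names, 34 of 77 KRAB genes (44.2%) had a region. So did 28 of 41 Zbtb genes (68.3%) and 14 of 31 Zscan, Zkscan and Zik genes (45.2%). Genes were joined into a cluster when neighbouring Zfp start sites lay within 500 kb and at least 4 genes were joined, which gave 23 clusters with 208 genes. Coverage was 61.5% inside clusters and 58.6% among the 186 genes outside them.

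**Figure D1:**
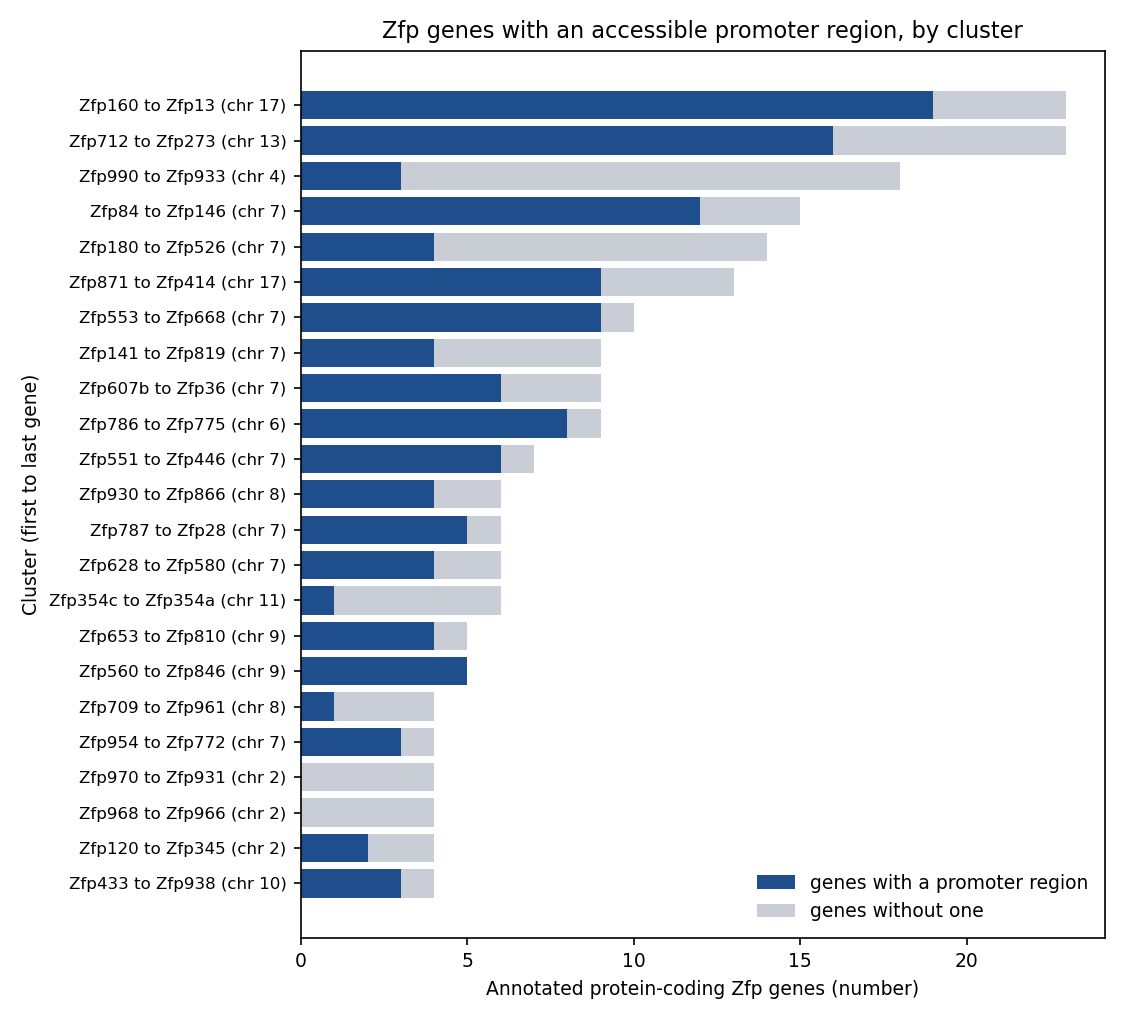
Number of annotated protein-coding Zfp genes in each of the 23 clusters (horizontal bars), divided into genes with a promoter region in the matrix (blue) and without one (grey); clusters are named by their first and last gene. The Zfp160 to Zfp13 cluster has regions at 19 of 23 genes, whereas the Zfp990 to Zfp933 cluster has them at 3 of 18.

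The clusters ranged from full to no coverage, as the plot of genes by cluster shows. All 5 genes of the cluster at 20.4 to 20.6 Mb of chromosome 9 (Zfp560, Zfp26, Zfp426, Zfp266 and Zfp846) had a region. The cluster at 127.2 to 127.9 Mb of chromosome 7 had regions at 9 of 10 genes, that at 47.8 to 48.6 Mb of chromosome 6 at 8 of 9, that at 21 to 23.6 Mb of chromosome 17 at 19 of 23, and that at 67.1 to 67.8 Mb of chromosome 13 at 16 of 23. By contrast, only Zfp933, Zfp984 and Zfp986 had a region among the 18 KRAB genes at 145.5 to 147.8 Mb of chromosome 4. Of 14 genes at 24.1 to 25.2 Mb of chromosome 7, 4 had one, and neither cluster at the end of chromosome 2, with 4 genes each, had any.

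Some clusters with low coverage had repeated start sites and others had none. The 150 bases around the start were present more than once in the genome, at 90% identity over 80% of their length, for 17 of the 18 genes of the chromosome 4 cluster and for all 8 genes of the 2 chromosome 2 clusters without a region. Over the family, 26 of 72 genes with a repeated start had a region (36.1%), against 211 of 322 genes with a single-copy start (65.5%). Reads from repeated sequence cannot be placed with certainty. The Bowtie2 options that the authors list set nothing for such reads, and no later filter of them is described for these libraries. No start was repeated in the chromosome 7 cluster at 24.1 to 25.2 Mb, in the one at 50.8 to 51.1 Mb of chromosome 11 (1 of 6 genes with a region) or in the one at 71.9 to 72.0 Mb of chromosome 8 (1 of 4). The first chromosome 17 cluster had 9 repeated starts and 82.6% coverage. The part of repeated sequence in the coverage was not tested.

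The next question was how accessible the Zfp promoters with a region were. A Zfp region received on average 19.7 and 11.2 counts per 100 cells at 0 hours and 13.2 and 13.1 at 24 hours. Other promoter regions received 19.9, 10.9, 13.6 and 15 in the same runs. The ratio of these means was 0.992, 1.03, 0.97 and 0.869, and over the 4 runs the mean log2 ratio was -0.06 (exact sign-flip permutation test over runs, two-sided, p = 0.375, where the smallest possible p is 0.125). A member region had signal in a median of 10.4 and 6.38% of the 0-hour cells and 6.67 and 6.94% of the 24-hour cells, and other promoter regions in 10.4, 6.38, 8.33 and 6.94%. The sign of the difference per region was not the same in every run. Every cell had signal in at least 4 Zfp regions, and the highest number was 93. Cells were also drawn down to 837 counts each over all regions. The 23 cells that held fewer were dropped, which left 48 and 46 cells at 0 hours and 47 and 63 at 24 hours. The median per cell was then 12 and 11 Zfp regions at 0 hours and 13 in both runs at 24 hours (exact permutation test, two-sided, p = 0.333, the smallest that 2 runs against 2 allow). Without thinning these medians were 31.5, 18, 22 and 20.0, highest in the deepest run. Promoter regions as a class took more of all counts at 24 hours, so the thinned difference is not one against other promoters.

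Members differed widely among themselves. The number of cells with signal ranged from 5 to 81 with a median of 18, and 106 of the 291 regions had signal in at least 23 cells. Only the share of cells is compared here, and it was not divided by the width of a region.

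The region with the most cells was at Zfp367, a C2H2 factor without a KRAB motif (chr13:64153291-64153438, midpoint at -162.5 bp from the start), with signal in 43.8 and 31.9% of the 0-hour cells and 35 and 33.3% of the 24-hour cells. It was followed by the Zfp654 region printed above, with 50.0, 34.0, 16.7 and 33.3% in the same order. Both were above the upper quartile of the members in every run, and the Zfp654 region was lowest in 24-hour run 1. The third was Zfp143 itself (chr7:110061443-110061592, in a UTR 300.5 bp after the start), with 27.1 and 25.5% of the 0-hour cells and 28.3 and 31.9% of the 24-hour cells.

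Several KRAB genes of the large clusters were among the 10 members with the highest mean share. Zfp712 and Zfp87 of the chromosome 13 cluster had means over the 4 runs of 23.5 and 22.4%. Zfp983 of the chromosome 17 cluster had 22.7%, Zfp120 of chromosome 2 had 20.3%, and Zfp825 of chromosome 13, outside any cluster, had 19.9%. The regions of Zfp983, Zfp120 and Zfp825 have 2 copies each in the genome, so part of their signal may belong to the other copy. The remaining 2 were a region at Zfp653 with 23.3% and the Zfp277 region, which also lies at the start of Dock4, with 20.9%.

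The main comparison was between 24 and 0 hours. Relative to other promoters, the Zfp promoters as a whole were slightly lower after tamoxifen, but no test of this or of its classes could pass a threshold. For every 1000 counts in other promoter regions, the Zfp regions had 34.0 and 35.2 at 0 hours and 33.2 and 29.8 at 24 hours. Both 24-hour runs lay below both 0-hour runs, with means of 34.6 ± 0.827 and 31.5 ± 2.44 (SD, n = 2 runs each) and a log2 change of -0.14 (exact permutation test, two-sided, p = 0.333). With 2 runs per time-point no p below 0.333 is possible for a single value, so this test cannot pass a threshold of 0.05. The change was -0.07 when only regions with 1 copy in the genome were counted and -0.06 without 24-hour run 2. Because promoters as a class took a larger share of all counts at 24 hours, the Zfp regions against all regions had the opposite sign, at 0.19.

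**Figure D2:**
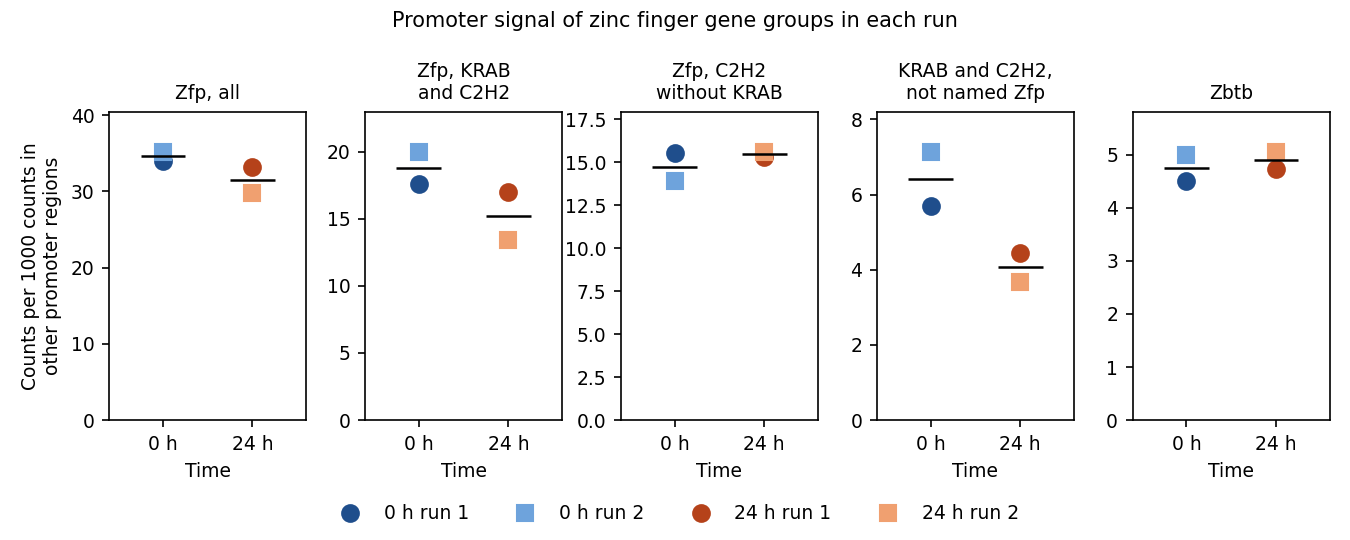
Counts per 1000 counts in other promoter regions (vertical axes from 0, linear, one scale per panel) for 5 groups of genes at 0 and 24 hours; each point is a run and each black line the mean of the 2 runs. For Zfp genes with a KRAB motif and for KRAB genes with other names both 24-hour points lie below both 0-hour points, whereas Zfp genes without a KRAB motif and Zbtb genes overlap.

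The 143 regions of KRAB genes had 17.6 and 20.0 counts per 1000 at 0 hours and 17.0 and 13.4 at 24 hours, a log2 change of -0.32. The 138 regions of C2H2 genes without a KRAB motif had 15.5, 13.9, 15.3 and 15.6, a change of 0.08. The KRAB group was lower in both 24-hour runs, and the other group overlapped. Their direct ratio, KRAB over C2H2 without KRAB, had log2 values of 0.18 and 0.53 at 0 hours and 0.15 and -0.22 at 24 hours, a change of -0.39 (exact permutation test, two-sided, p = 0.333, added after the data were seen). The first runs of the time-points were nearly equal in this ratio, and the change lay between -0.58 and -0.21 when each run was left out in turn, being smallest without 24-hour run 2. By position, the log2 change of KRAB sums was -0.30 inside clusters (112 regions) and -0.37 outside them (31 regions), and that of C2H2 sums without KRAB was 0.07 and 0.08. The part of position in the class difference was not tested.

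The same direction was present at KRAB zinc finger genes that carry other names, a list that shares no region with the Zfp members. Their 35 regions had 5.70 and 7.14 counts per 1000 at 0 hours and 4.45 and 3.68 at 24 hours, a fold of 0.635 and a log2 change of -0.66 with no overlap between time-points (exact permutation test, two-sided, p = 0.333). The 37 regions of Zbtb genes, which pair C2H2 fingers with a BTB domain, had 4.50, 5.0, 4.73 and 5.06, and the 15 regions of Zscan, Zkscan and Zik genes had 1.59, 1.47, 1.95 and 1.25, and both groups overlapped. All of these sums share the same denominator and the same 4 runs.

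Base composition moved with the protein class. The median GC content of the 150-bp windows was 57.3% at KRAB regions, 67.3% at C2H2 regions without KRAB and 66.0% at other promoter regions. At the 35 regions of KRAB genes with other names it was lower still, 53.3%. Of the KRAB regions, 80.4% were in the lowest tertile of GC content of all promoter regions (up to 62.0%), against 34.1% of the C2H2 regions without KRAB and 34.7% of other promoter regions. In that tertile the log2 change of the summed counts was -0.45 for KRAB, -0.24 for C2H2 without KRAB and -0.14 for other promoter regions, in the middle one 0.15, 0.36 and 0.02, and in the highest tertile it was 0.76, 0.23 and 0.17. The 9 KRAB regions in the highest tertile are few. In the lowest tertile KRAB regions had the lowest sum of the 3 classes but not the lowest median change per region, which was 0.04 for KRAB, -0.09 for C2H2 without KRAB and 0.14 for other promoter regions. The part of GC content in the class difference, and in the change at KRAB genes with other names, was not tested.

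Signal was then summed by cluster, for the 18 clusters with at least 3 regions. Of these, 14 had a log2 change below 0, 8 with both 24-hour runs below both 0-hour runs, and 4 had both above, which leaves 6 that overlapped. No cluster can pass a threshold with 2 runs against 2 (exact permutation tests, two-sided, smallest p = 0.333, adjusted p = 0.527 over the 18 clusters and the unclustered regions).

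**Figure D3:**
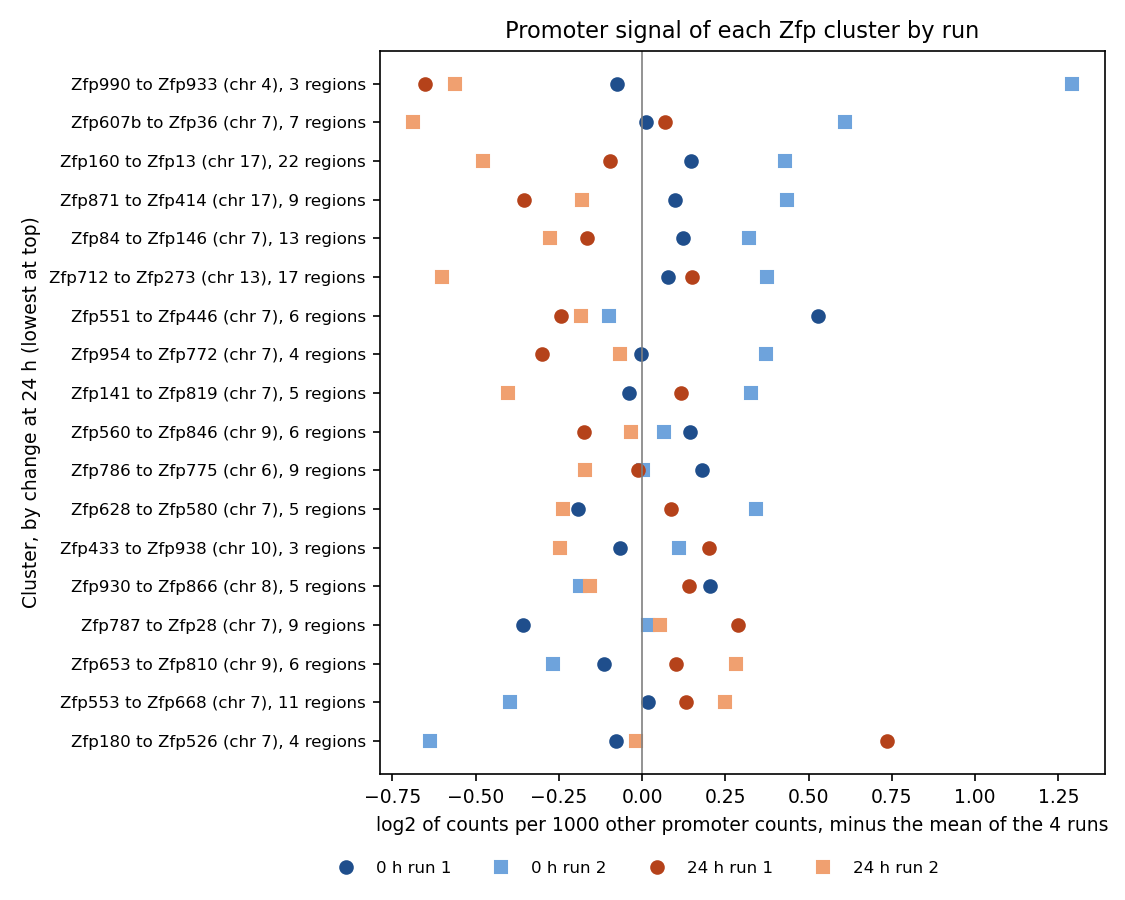
Summed signal of each cluster with at least 3 regions, as the log2 of counts per 1000 other promoter counts minus the mean of the 4 runs (horizontal axis, one point per run); clusters are ordered by their change at 24 hours. The Zfp160 to Zfp13 cluster of chromosome 17 with 22 regions has both 24-hour points left of both 0-hour points, and the Zfp553 to Zfp668 cluster of chromosome 7 has them on the right.

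The cluster with the most regions, 22 at 21 to 23.6 Mb of chromosome 17, 21 of them at KRAB genes, had 2.50 and 3.04 counts per 1000 at 0 hours and 2.11 and 1.62 at 24 hours. Its log2 change was -0.58, and it lay between -0.77 and -0.39 when each run was left out. The second chromosome 17 cluster, at 32.8 to 33.6 Mb with 9 regions, had 1.11, 1.40, 0.81 and 0.914, a change of -0.54, and the cluster at 29.8 to 30.2 Mb of chromosome 7 with 13 regions had 1.22, 1.40, 0.998 and 0.925, a change of -0.45. These 3 sums were lower in both 24-hour runs. The median change of single regions was 0.13 in the first and 0.59 in the last, both on the edgeR scale, where that of other promoter regions was 0.34. The median thus lay below other promoter regions in the first, as the sum did, and above them in the last. In the last, 5 regions were higher in both 24-hour runs and 3 lower (38.5 and 23.1%), beside 28.1 and 13.1% of other promoter regions. The lower ones were Zfp790 (-2.26), Zfp566 (-1.30) and Zfp420 (-0.64). The chromosome 13 cluster had 1.97, 2.42, 2.07 and 1.23, a change of -0.45 that overlapped, and without 24-hour run 2 its change was -0.08. In that cluster 11 of the 17 regions have more than 1 copy in the genome, and the change was -0.63 over the regions with 1 copy. The lowest value of all, -1.21 for the 3 regions of the chromosome 4 cluster, was -0.53 without 0-hour run 2, and 2 of its regions have more than 1 copy.

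Within the first chromosome 17 cluster, 6 of the 22 regions were lower in both 24-hour runs and 3 were higher, beside 13.1 and 28.1% of other promoter regions. The Zfp160 region had 72.8 and 104 CPM (counts scaled to the effective size of each run) at 0 hours and 16.2 and 22.0 at 24 hours, and the Zfp13 region 121 and 157 against 56.6 and 73.3. The Zfp51 region nearest the start had 84.9 and 52.2 against 121 and 132. None of these regions passed the test.

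The 4 clusters that were higher in both 24-hour runs were on chromosomes 7 and 9. At 127.2 to 127.9 Mb of chromosome 7, 4 of 11 regions were at KRAB genes, and the counts per 1000 were 1.32 and 0.99 at 0 hours and 1.43 and 1.55 at 24 hours, a change of 0.38. Here 6 of the 11 regions were higher in both 24-hour runs and none was lower, beside 28.1 and 13.1% of other promoter regions. The 6 were both regions of Zfp646 and those of Zfp668, Zfp688, Zfp689 and Zfp764, the last with 5 copies in the genome. The cluster at 6.2 to 6.4 Mb of chromosome 7, which holds Zfp667, had 0.728, 0.944, 1.14 and 0.969, and the one at 22.1 to 22.3 Mb of chromosome 9, which holds Zfp653 and Zfp809, had 0.974, 0.875, 1.13 and 1.28. In the latter 4 of the 6 regions were at KRAB genes. The remaining one, at 24.1 to 25.2 Mb of chromosome 7, rests on 4 regions with at most 33 counts in a run.

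No single member passed the test. Of all 20103 regions, 0.0547% were called (11 regions) by edgeR's quasi-likelihood test at an adjusted p of 0.05, and 0 of the 291 members were. DESeq2 called 0 of all regions, so its 0 members say nothing about the family. At an unadjusted p of 0.05, 5 members were lower and 19 higher at 24 hours (1.72 and 6.53%), beside 1.92 and 7.72% of other promoter regions. This balance depended on the scaling, with 10 lower and 6 higher when the number of cells was the offset. That offset shifts all regions together, and the median change of other promoter regions was -0.14 with it and 0.34 without. The balance also depended on the filter, with 7 lower and 6 higher among regions in at least 10% of cells. No share of other promoter regions is given for either setting. Counted by runs alone, both 24-hour values lay below both 0-hour values in 44 members (15.1%) and above them in 79 (27.1%), beside 13.1 and 28.1% of other promoter regions. These shares are near the background, so the members as single regions did not stand apart. Split by class, 30 of the 143 KRAB regions (21%) were lower in both 24-hour runs and 33 higher (23.1%), against 13 (9.42%) and 45 (32.6%) of the C2H2 regions without KRAB. The median log2 change was 0.14 at KRAB regions, 0.31 at C2H2 regions without KRAB and 0.34 at other promoter regions, on the edgeR scale that includes all regions. The median over all regions was -0.06 on that scale and -0.51 when the number of cells was used as the offset. In simulated data with the regions and run sizes of the matrix, of 200 regions changed by a log2 of 2 the test called 72 at a biological coefficient of variation of 0.1, 50 at 0.2 and 4 at 0.4, and the value estimated here was 0.419.

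**Figure D4:**
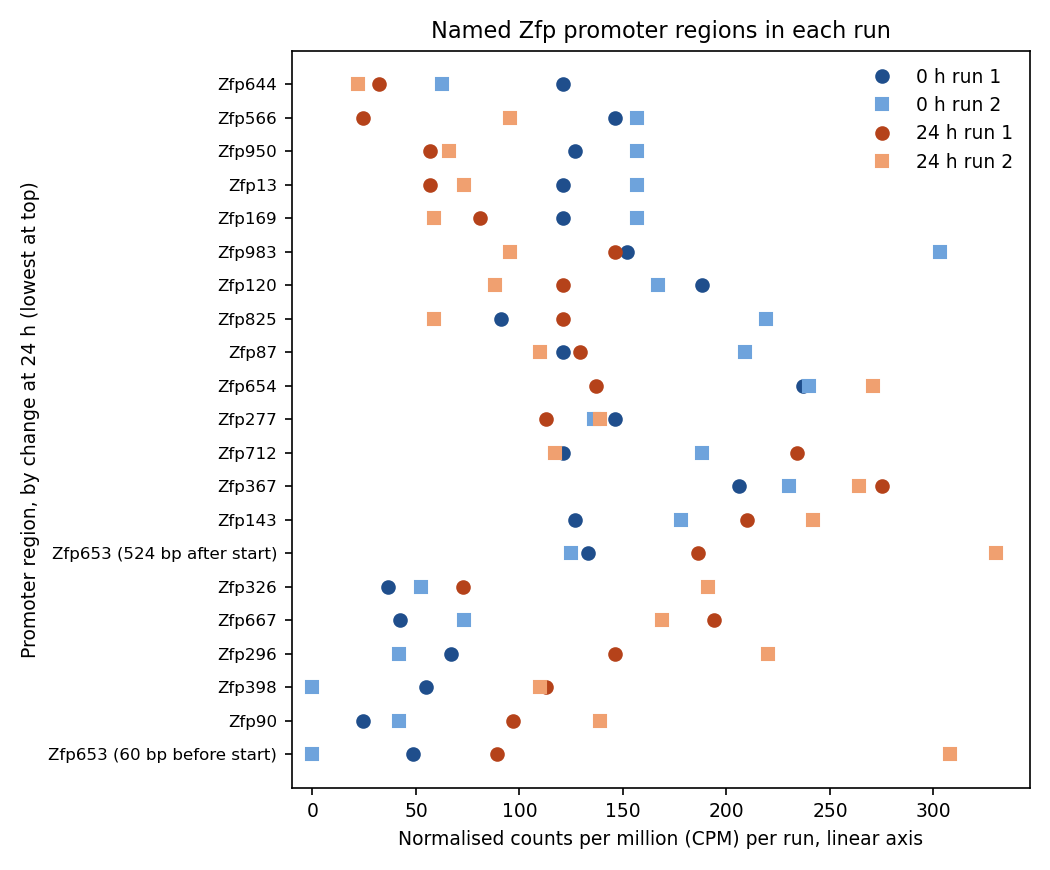
Normalised CPM (horizontal axis, linear) of the 10 members with the highest mean share of cells and of the members with the largest changes whose runs did not overlap, one point per run, ordered by the log2 change at 24 hours. Zfp950 and Zfp13 have both 0-hour points above both 24-hour points, Zfp90 and Zfp667 the reverse, and the Zfp653 region nearest the start reaches 308 CPM in 24-hour run 2.

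The largest increase among members with signal in at least 23 cells and runs that did not overlap was at the start of Zfp653, a C2H2 gene without a KRAB motif (chr9:22071360-22071513). The region had 48.5 and 0 CPM at 0 hours and 88.9 and 308 at 24 hours. Signal was present in 4 of 48 and 0 of 47 cells at 0 hours, where 0 of 47 allows a share of up to 6.38%, and in 8 of 60 and 22 of 72 cells at 24 hours. The log2 change was 2.75 ± 0.73 (SE), with an adjusted p of 0.114 (edgeR) and of 0.964 with DESeq2. It depended on single runs. Without 24-hour run 1 it was 3.34 (edgeR adjusted p = 0.000272), without 24-hour run 2 it was 1.59 (0.581), without 0-hour run 2 it was 2.02 (0.834), and without 0-hour run 1, which leaves a 0-hour level of 0, the adjusted p was 0.0838. The second region of the gene, 524.5 bp after the start, had 133 and 125 against 186 and 330 CPM. Both regions of the gene were thus highest in 24-hour run 2, and both lie within 1000 bp of the start of Gm49318.

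The next 5 increases are given for members chosen by the same rule, which takes only those with signal in at least 23 cells and no overlap of the runs, so that their order of runs is no finding. None had an adjusted p below 0.05. The rule left out larger or similar changes whose runs overlapped, such as Zfp106 with a log2 change of 3.12 and signal in 10 cells and Zfp207 with 1.52 and signal in 24 cells. It also left out larger increases without overlap in fewer cells, such as Zfp346 with 2.93 and signal in 22 cells. Zfp667, a KRAB gene, had 42.5 and 73.1 CPM at 0 hours and 194 and 169 at 24 hours (log2 change 1.69 ± 0.61). Zfp90, also a KRAB gene (chr8:106415229-106415376), had 24.3 and 41.8 against 97.0 and 139 CPM (1.88 ± 0.77). Zfp296 had 66.7 and 41.8 against 146 and 220 CPM, at a region 881.5 bp from its start that is also near the start of Gemin7. Its 2 regions nearer the start had changes of -0.10 and -0.73. Zfp398 had 54.6 and 0 against 113 and 110, a change of 1.78 that was 1.02 without 0-hour run 2. Zfp326, a component of a complex that couples transcription and splicing, had 36.4 and 52.2 against 72.8 and 191. The Zfp326 change depended most on 24-hour run 2, since it was 0.75 without that run and 1.6 with all runs.

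Among members with signal in at least 23 cells and runs that did not overlap, 5 of the 6 largest decreases were at KRAB genes, a share that was not tested. KRAB regions were 143 of all 291 members, and Zfp667, Zfp90 and Zfp398 among the increases were also at KRAB genes. Larger decreases lay at regions with fewer cells, such as one 905 bp after the start of Zfp131, a C2H2 gene without KRAB, with -3.69 and signal in 10 cells. Zfp950 (chr19:61140771-61140896, in a UTR 6.5 bp after the start) had 127 and 157 CPM at 0 hours and 56.6 and 66.0 at 24 hours (-1.18 ± 0.63). Zfp566, whose element is printed above, had 146 and 157 against 24.3 and 95.3 CPM (-1.30 ± 0.64). Its change was -0.65 without 24-hour run 1, -2.58 without 24-hour run 2 and -0.68 by detection alone. Zfp169 had 121 and 157 against 80.9 and 58.7, and Zfp13 and Zfp983 of the chromosome 17 cluster were also among these 6 members. The Zfp983 change was -0.88 and was -0.33 without 0-hour run 2. The exception in class was Zfp644, a C2H2 protein without KRAB that interacts with the histone methyltransferase G9a, with 121 and 62.7 against 32.3 and 22.0 CPM (-1.77 ± 0.84), a change that was -1.16 without 0-hour run 1. The lowest adjusted p of these 6 was 0.376 (edgeR). The 12 increases and decreases chosen by this rule kept their direction with DESeq2, with run totals, with cell numbers as offset and by detection alone. Leaving out a run could not reverse them, since they were chosen for runs that did not overlap.

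Of 33 Zfp genes listed for their known roles, 25 had a promoter region. Genes without one were Zfp57, which keeps imprinted methylation, Zfp423 and Zfp521, which bind the B cell factor Ebf1, and Zfp217, Zfp462, Zfp609, Zfp687 and Zfp710. Among the 25 regions, 10 were higher in both 24-hour runs, 3 lower and 12 overlapped, and 4 had an unadjusted p below 0.05. Of other promoter regions 28.1% were higher and 13.1% lower in both 24-hour runs, and 7.72 and 1.92% had such a p in each direction. No share was tested, and the list holds few genes.

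Zfp143 had 127 and 178 CPM at 0 hours and 210 and 242 at 24 hours, a log2 change of 0.59 ± 0.50 with no overlap of the runs. Zfp148, which binds GC-rich promoters, had 66.7 and 31.3 against 97.0 and 205, and Zfp622, a factor of ribosome maturation, had 72.8 and 104 against 129 and 191. Zfp809, the KRAB protein that silences murine leukaemia viruses through their primer binding site, had 91.0 and 125 against 178 and 161. These 4 were higher in both 24-hour runs.

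The mRNA-binding Zfp36 family, which limits the stability of AU-rich messages, did not move as a group. Zfp36 had 66.7 and 115 against 32.3 and 66.0 CPM at a region 898 bp after its start, Zfp36l1 had 18.2 and 73.1 against 48.5 and 110, and Zfp36l2 had 54.6 and 136 against 64.7 and 110. At these regions, each the nearest to its start, Zfp36 was lower in both 24-hour runs and the others overlapped, and the second Zfp36 region also overlapped (-0.23). Of the further regions of Zfp36l1 and Zfp36l2, 1 at Zfp36l1 was higher in both 24-hour runs (0.96) and 3 overlapped. Zfp318, which is needed for the expression of IgD in mature B cells, had 78.8 and 73.1 against 56.6 and 95.3. Zfp384, whose human counterpart is rearranged in B cell leukaemia, had 121 and 94.0 against 97.0 and 95.3. Both overlapped.

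The genes through which KRAB proteins act were taken from a list of 38 corepressor genes. Of these 31 had a promoter region, and Trim28 itself had none. None passed the test, 10 were higher in both 24-hour runs and 2 lower, and the median log2 change was 0.51, beside 28.1% higher, 13.1% lower and a median of 0.34 over other promoter regions. Setdb1, the methyltransferase that Trim28 recruits, had 24.3 and 10.4 CPM at 0 hours and 24.3 and 51.3 at 24 hours. Gatad2b, a subunit of the NuRD complex, was the list's region with signal in the most cells, 83 of 227, with 164 and 146 against 323 and 411 CPM (log2 change 1.23 ± 0.47, adjusted p = 0.27, edgeR). Morc3 had 54.6 and 62.7 against 170 and 242. The 2 that were lower in both runs were Uhrf1, which maintains DNA methylation, with 66.7 and 94.0 against 16.2 and 58.7, and Atrx, a chromatin remodeller of repeats, with 60.6 and 104 against 32.3 and 29.3.

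The sequence windows of the family were lastly compared with those of the 8495 other promoter regions, as the share of 150-bp windows that hold each motif on either strand. The extended Ikaros core TGGGAA was present in 17.5% of the Zfp windows and 10.2% of the others, and the shorter core GGGAA in 43.6 and 37.8%. The element printed above was present in 6.53% of the Zfp windows and 1.21% of the others. Of the 51 Zfp windows with TGGGAA, 19 held it as part of the element (37.3%), against 103 of 868 other windows (11.9%). Without those, TGGGAA was present in 11% of the Zfp windows and 9.01% of the others. The element was defined from the Zfp windows, so this smaller difference is in part fixed by that choice and no conclusion is drawn from it. The strings ACTACA and AATGTAGT, also added to the search, were in 15.5 and 6.53% of the Zfp windows and 6.45 and 0.906% of the others.

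**Figure D5:**
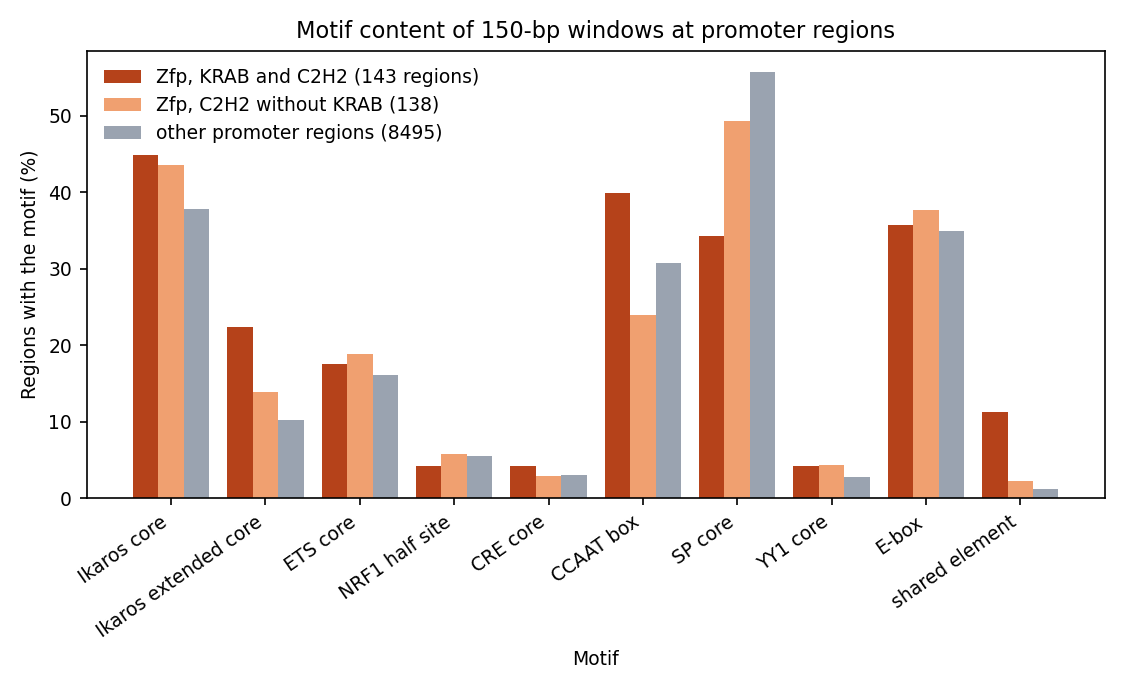
Share of 150-bp windows at promoter regions that hold each motif on either strand (bars from 0, in percent), for KRAB Zfp genes, for C2H2 Zfp genes without KRAB and for other promoters. The shared element is in 11.2% of the KRAB windows, 3 of 138 C2H2 windows without KRAB and 1.21% of the others, and the SP core is in 34.3, 49.3 and 55.7%.

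By class, the element was in 11.2% of the KRAB windows and 3 of 138 windows of C2H2 genes without KRAB, and TGGGAA in 22.4 and 13.8%. The CCAAT box was in 39.9% of the KRAB windows, 23.9% of the C2H2 windows without KRAB and 30.7% of the others. The SP core GGGCGG was less common at KRAB genes, with 34.3% against 49.3 and 55.7%. The cores of ETS, NRF1, CRE and YY1 and the E-box CANNTG differed little, with 17.9, 4.81, 3.44, 4.12 and 35.7% in the Zfp windows and 16.1, 5.45, 3.06, 2.81 and 34.9% in the others. These are shares of windows that share ancestry within clusters, and they were not tested. The median log2 change at 24 hours was 0.14 with TGGGAA and 0.20 without it at Zfp regions, and 0.21 and 0.35 at other promoter regions. With the element it was -0.01, and 0.20 without it, over 19 and 272 Zfp regions, and 0.16 and 0.34 at other promoter regions.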

How the data were processed

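The authors mapped single-cell ATAC-seq libraries of ERt2-Ikaros B3 cells to mm10 with Bowtie2, removed duplicates with Picard, called HOMER peaks in the bulk ATAC-seq samples and deposited whole-number counts of 227 cells in 20103 regions, without normalization. No deposited value is above 2, and the sources used here do not say whether higher ones were reduced. They do not say whether region starts count from 0 or 1, and 1 was assumed. The bulk samples were not analysed here.

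Counts were summed per C1 run, the replicate, and the 4 runs held 92639 to 164357 counts. Labels list 48, 63, 75 and 73 cells for runs of 48, 47, 60 and 72 here. All regions were tested with edgeR 4.0.16 (quasi-likelihood, TMM, R 4.3.3), with Benjamini-Hochberg adjustment over all regions at 0.05. A single value per run was tested by exact permutation in SciPy 1.17.1. Limits for a count of 0 use 3 counts and cover counting error only. Start sites are those of GENCODE vM21. C2H2 and KRAB motifs were searched in proteins translated from its longest coding sequences, since a protein table was not used here. Copies came from BLAST 2.17.0, and 6 member regions were too short to search. No doublet caller was run, since capture sites had been inspected by eye.

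Members named are the 10 with the highest mean share of cells, any called, up to 6 in each direction with at least 23 cells and runs that did not overlap, and 33 listed genes, each at the region nearest its start. Zfp160, Zfp51, Zfp646, Zfp668, Zfp688, Zfp689, Zfp764, Zfp790, Zfp420, Zfp346 and the second Zfp131 region were named after their values were seen. The members, lists, tests and alternatives were chosen with earlier results of these data known. Run numbers did not pair the runs (correlation of deviations -0.0109). The edgeR test was checked on simulated data. Alternatives were DESeq2 1.42.0, other scalings and filters, detection only, thinned cells, single-copy regions, other windows, a replicate block and each run left out.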

Additional observations from a re-analysis of the deposited data

How the results depend on the processing

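Against all regions rather than other promoters, the Zfp change at 24 hours was 0.19 and the Zfp level per region 0.30 on the log2 scale, both of the opposite sign. With any transcript start the level per region was 0.00, which shows no difference in either direction. Among regions in at least 10% of cells the Zfp change was -0.14, and with thinned cells the change of the KRAB ratio was -0.46. In both the time-points overlapped (exact permutation tests, two-sided, p = 0.667). Leaving out 1 run moved the Zfp change between -0.22 and -0.06, the level per region between -0.09 and -0.01, the KRAB ratio between -0.58 and -0.21 and the number of clusters with a lower share between 11 and 14 of 18. It moved the members called higher at 24 hours between 0 and 10, and all 10 appeared without 24-hour run 1 (Zfp263, Zfp280d, Zfp296, Zfp326, Zfp335, Zfp346, Zfp397, Zfp653, Zfp661 and Zfp688), when 797 of all regions were called and the spread of the single 24-hour run left was taken from the 0-hour pair. The cause was not tested. Run number as a replicate block left the Zfp change at -0.14 and called 0 members in each direction. The run numbers only name the runs.

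Clusters were recomputed without each run, and 16 of the 18 also with single-copy regions alone, which gave no value for those on chromosomes 4 and 10. In these alternatives 15 of 18 kept their direction. Leaving out a run could not reverse the 8 lower and 4 higher clusters, since their runs did not overlap. The 3 that reversed are among the 6 clusters that overlapped. Named regions were recomputed with DESeq2, run totals, cell numbers as offset, detection and without each run, and 11 of 43 reversed in at least 1 of these. Of the 11, Zfp367 and Zfp281 reversed only with cell numbers as offset, which shifts all regions together. The 12 chosen for runs that did not overlap could not reverse when a run was left out, so all 11 are among the other 31. Leaving out a run gave -0.21 to 0.18 for the cluster at 69.2 to 69.8 Mb of chromosome 8, -0.27 to 0.18 for that at 81.7 to 82.2 Mb of chromosome 10 and -0.42 to 0.11 for that at 4.9 to 5.1 Mb of chromosome 7. It gave -0.79 to 0.19 for Zfp654, -0.35 to 0.65 for Zfp712, -0.60 to 0.68 for Zfp36l2, -1.57 to 0.39 for Zfp91, -2.31 to 5.27 for Zfp106, -0.25 to 0.18 for Zfp110, -0.43 to 0.32 for Zfp318, -0.33 to 0.05 for Zfp384 and -0.24 to 0.89 for Zfp932. Cell numbers as offset gave -0.14 for Zfp367, -0.19 for Zfp712, -0.20 for Zfp281, -0.48 for Zfp318 and -0.38 for Zfp932. With that offset the median over all regions was -0.51 in place of -0.06, so these values moved with all regions. Detection alone gave 0.09 for Zfp36l2, 0.24 for Zfp110 and -0.04 for Zfp318, and run totals gave -0.05 for Zfp318.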
